A study of Mus musculus with 6 samples.

Results

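Osteopontin (Spp1), fibronectin (Fn1) and 8 further secreted matrix proteins were followed in cultured hepatoblasts after transfection of a miR-337-3p mimic. The 10 genes are Spp1, Fn1, Thbs1, Thbs2, Tnc, Sparc, Postn, Tgfbi, Efemp1 and Efemp2, taken by symbol from the 30927 genes measured, and each had 1 row on the array. The list was chosen from genes whose mimic and control signals were already known, so their differences between the groups are given as a description and are no independent evidence of a response. Every array came from BMEL cells, an immortalized hepatoblast line of the CD1 strain with a wild-type genotype, made from fetal liver at E12.5. Hepatoblasts are the fetal progenitors of hepatocytes and of bile duct cells. Cells were plated on collagen at 50000 per well and transfected 1 day later by lipofection. The control group received 500 ng of a negative control mimic and the other group 500 ng of a mimic of mmu-miR-337-3p, a synthetic duplex that acts as extra copies of that microRNA. RNA was taken after 48 h from 3 samples per group. Replicates are of 1 cell line, and the labels do not say whether they were separate cultures, so the errors and p-values cover only the variation among these 6 samples, part of which could be technical.

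The extracellular matrix is a network of fibrous proteins to which cells attach through integrins. Matricellular proteins are secreted into it but act mainly by binding cell receptors, growth factors and proteases, rather than as load-bearing fibres. Osteopontin is known in liver as a product of bile duct cells and of progenitor cells that expand after injury, and fibronectin is made in quantity by hepatocytes for plasma and by many cells for the matrix. Thrombospondin 1, the product of Thbs1, can activate latent TGF-beta, and TGF-beta in turn is a known inducer of Fn1, Thbs1, Postn and Tgfbi in many cell types.

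A microRNA pairs with target transcripts mainly through its seed, bases 2 to 8 from its 5′ end. The sequence of the microRNA supplied by the mimic is shown because it is the agent that separates the groups. It comes from RefSeq (build GRCm38.p6, plus strand, chr12:109585850-109585871), with the seed in capitals.
mmu-miR-337-3p: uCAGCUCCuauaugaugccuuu
None of the other sequences among the 1679 mature mouse microRNAs compared held this seed at bases 2 to 8. Target sites in the transcripts of the 10 genes were not analysed here.

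The labelled cell type was compared with marker levels before the genes were described. The arrays give no detection call, so 1121 olfactory receptor genes, which liver cells are not known to use, served as a guide to background. Their 95th percentile lay between 4.70 and 5.11 on the log2 scale over the 6 arrays. Of 12 hepatoblast and liver epithelium markers, 11 exceeded it on all 6 arrays, and the exception was Dlk1, above it on 3 arrays. Endothelial markers exceeded it on all arrays in 0 of 7 cases. Of 10 stellate cell and fibroblast markers 2 did so, the collagen gene Col1a1 and the smooth muscle actin gene Acta2. Col3a1 exceeded it on 5 arrays, Pdgfrb on 4, Col1a2 on 2 and Des on 1, while Lrat, Pdgfra, Dcn and Lum exceeded it on none. The summed log2 signal of these 10 markers ran from 45.9 to 46.7 in control and from 45.3 to 46.7 in mimic samples. Col1a1 was higher in mimic samples by 0.59 (SE 0.12, limma adjusted p = 0.0384). Of 6 macrophage and leukocyte markers 3 exceeded it on all arrays, Cd68, Cd14 and Csf1r, while Ptprc, Emr1 and Lyz2 exceeded it on none. The summed log2 signal of this list was 29.8 to 31.3 in control and 32.1 to 32.4 in mimic samples, with Cd68 higher by 1.18 (SE 0.23, limma adjusted p = 0.0320). Cd14 had a log2 difference of 0.88 (SE 0.25), at an adjusted p of 0.106 in limma and 0.00543 with the replicate number as a block. Csf1r and Emr1 lay on the other side, with log2 differences of -0.36 each (limma adjusted p = 0.433 and 0.342), and the groups did not overlap for Csf1r. The part of these markers in the results below was not tested. In a bulk sample, more cells of a type and more RNA per cell cannot be told apart.

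Osteopontin showed the widest gap between the groups of the 10 genes. Spp1 (transcript cluster 17439830), which encodes a phosphoprotein that binds integrins and CD44, read 7.23, 8.39 and 7.14 in control replicates 1 to 3 and 10.08, 9.97 and 9.96 in mimic replicates 1 to 3 on the log2 scale. The groups did not overlap. Control replicate 2 stood above the other controls, whereas the mimic arrays lay close together, with an SD of 0.07 against 0.69 in controls (n = 3 each). The log2 difference was 2.42 (SE 0.30), or 5.34-fold. It was 2.82 without control replicate 2, the highest value with any 1 array left out, and 2.19 without control replicate 3, the lowest.

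Fibronectin was higher in every mimic sample, with little spread within either group. Fn1 (17224071), the glycoprotein that links integrins to collagen and assembles into fibrils, read 10.78, 10.86 and 10.62 in control and 12.23, 12.20 and 12.24 in mimic samples. The groups were far apart compared with their SDs of 0.12 and 0.02 (n = 3 each). The log2 difference was 1.47 (SE 0.12), or 2.78-fold, and stayed between 1.41 and 1.53 with any 1 array left out. Fn1 is spliced into several forms, and the single row does not separate them.

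The thrombospondin genes encode multimeric glycoproteins that bind CD47, CD36 and integrins, and the 2 measured here gave different pictures. Thbs1 (17374488) read 6.16, 7.01 and 5.64 in control and 8.43, 8.11 and 7.02 in mimic samples. The lowest mimic array, replicate 3, lay just above the highest control array, replicate 2, so the groups barely separated. The log2 difference was 1.59 (SE 0.41), or 3.00-fold, with SDs of 0.69 and 0.74 (n = 3 each). Differences within a replicate number were all positive, at 2.26, 1.11 and 1.39 for numbers 1, 2 and 3. Thbs2 (17341080) read 4.78, 4.21 and 4.24 in control and 4.61, 4.48 and 4.71 in mimic samples, and exceeded the olfactory receptor guide on 1 array. The groups overlapped, and the log2 difference was 0.19 (SE 0.17) with a 95% interval from -0.21 to 0.59.

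Tenascin C, a hexameric protein of developing and wounded tissue that loosens cell attachment to fibronectin, was dim in both groups. Tnc (17426365) read 4.67, 4.67 and 4.51 in control and 4.90, 5.28 and 5.16 in mimic samples. The groups did not overlap, but the signal exceeded the background guide on only 2 arrays, both of the mimic group. The log2 difference was 0.50 (SE 0.14), and since background can add to dim signals a fold computed from it may understate the change.

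Sparc, a collagen-binding matricellular protein also called osteonectin, differed little between the groups. Sparc (17262990) read 9.81, 10.05 and 9.56 in control and 10.27, 10.21 and 9.99 in mimic samples. Mimic replicate 3 lay below control replicate 2, so the groups overlapped, though every number gave a positive difference, from 0.16 to 0.46. The log2 difference was 0.35 (SE 0.16), with a 95% interval from -0.01 to 0.71.

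Periostin (Postn) and Tgfbi, also called beta-ig-h3, are related proteins built from fasciclin domains that bind integrins. Postn (17397575) read 3.63, 3.42 and 3.21 in control and 3.36, 3.43 and 3.67 in mimic samples, below the background guide on all 6 arrays. No difference could be shown at that signal, the log2 difference being 0.07 (SE 0.15). Tgfbi (17287827) read 5.76, 5.31 and 5.14 in control and 5.46, 4.82 and 5.15 in mimic samples, above the guide on each array. The groups overlapped, with a log2 difference of -0.26 (SE 0.21) and a 95% interval from -0.74 to 0.22.

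The fibulin-like genes Efemp1 and Efemp2, which encode fibulin 3 and fibulin 4, lay on opposite sides. Efemp2 (17356447), needed in mice for elastic fibre assembly and for guiding lysyl oxidase to elastin, read 7.65, 7.74 and 7.64 in control and 8.29, 8.34 and 8.19 in mimic samples. The groups did not overlap and the log2 difference was 0.60 (SE 0.12), or 1.51-fold, with nearly equal differences of 0.64, 0.60 and 0.55 for numbers 1, 2 and 3. Efemp1 (17247948), a fibulin of basement membranes and connective tissue, read 9.59, 10.14 and 9.70 in control and 9.25, 9.43 and 9.18 in mimic samples. Its groups did not overlap in the other direction, with a log2 difference of -0.52 (SE 0.17), and -0.34, -0.71 and -0.51 for numbers 1, 2 and 3.

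**Figure D1:**
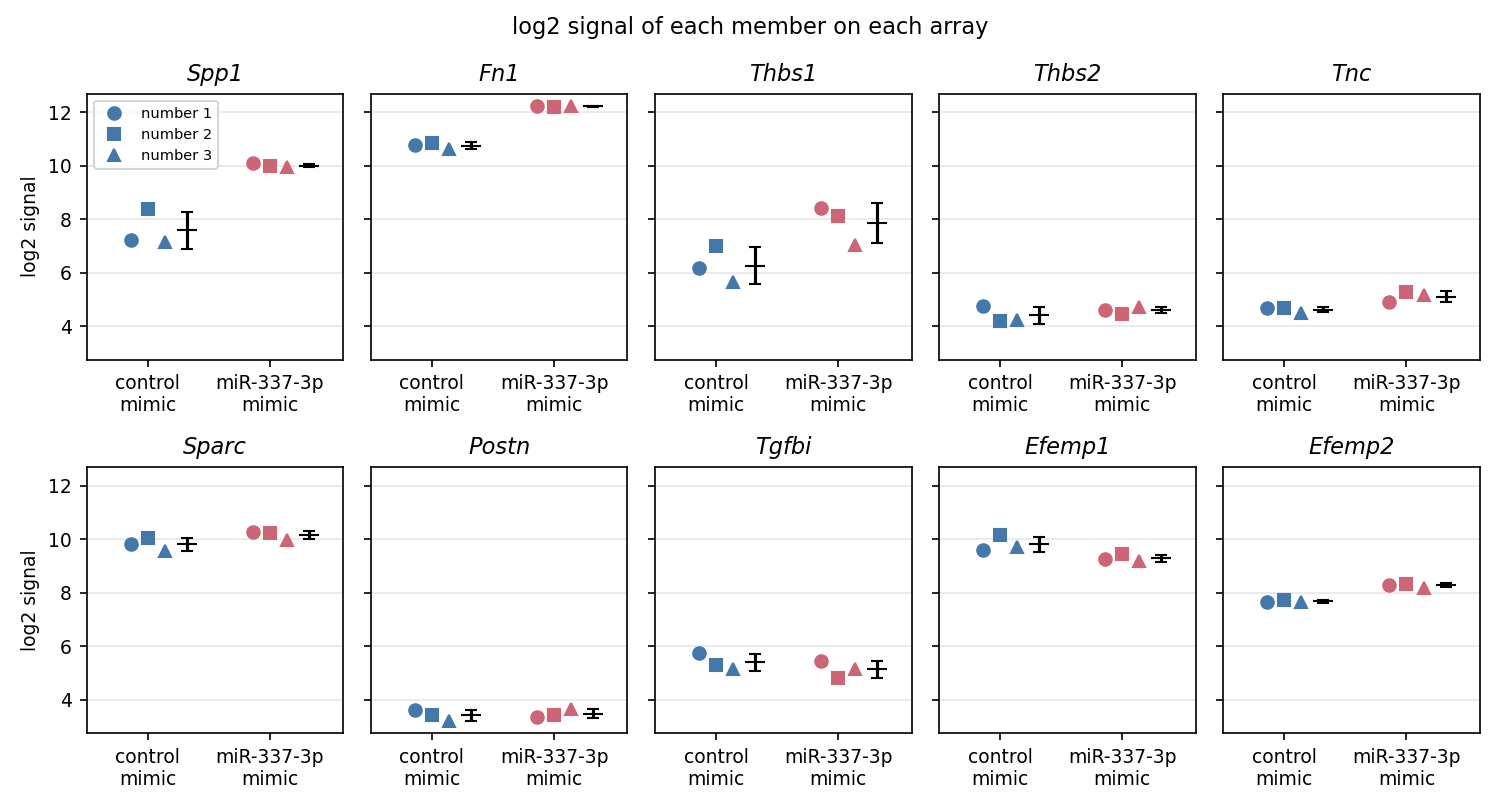
Each panel plots the log2 signal (y axis) of 1 gene on the 3 control mimic arrays (blue) and the 3 miR-337-3p mimic arrays (red), with the marker shape giving the replicate number and the black bar the mean ± SD. Spp1, Fn1, Thbs1, Tnc and Efemp2 lie higher in every mimic array than in any control array, Efemp1 lies lower, and the other 4 overlap.

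The groups did not overlap for 6 of the 10 genes, against 19.6% of all genes. Of these, 5 lay on the higher side and 1 on the lower side, where 11.2% and 8.33% of all genes did so. In limma fitted over all 30927 genes, 3 of the 10 were called higher (Spp1, Fn1 and Efemp2) and 0 lower, beside 1.89% of all genes called higher and 1.68% lower, or 3.57% in either direction, at a Benjamini-Hochberg adjusted p under 0.05. At an unadjusted p under 0.05 there were 5 higher and 1 lower, beside 8.7% and 6.38% of all genes. Because the genes were listed with this comparison known, these shares describe them and nothing is read from the excess. The median log2 difference of the 10 was 0.42, against 0.02 over all genes, and 8 of them lay above 0, as did 53.9% of all genes.

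The adjusted p-values place the genes within the fit and are not a test of the list. They were 0.00253 for Fn1, 0.00648 for Spp1 and 0.0326 for Efemp2 in limma, and 0.0862 for Thbs1, 0.106 for Tnc and 0.162 for Efemp1. Fn1 and Spp1 were called in all 6 fits that left out 1 array, with adjusted p up to 0.0145 and 0.0317. Efemp2 was called in none of these 6 (0.0682 to 0.128), and Thbs1 was called only without control replicate 2 (0.0499) or mimic replicate 3 (0.0414). Without both arrays of number 1, Fn1 was the 1 gene called (0.0475), against 0.101 for Spp1. With each array centred on its median, Efemp2 lost its call (adjusted p = 0.0638). Arrays of the same number deviated together, and with the replicate number as a block Thbs1 was called higher (limma adjusted p = 0.00636) and Efemp1 lower (0.0401), which made 4 higher and 1 lower. That fit called 4.7% of all genes higher and 3.88% lower, or 8.58% in either direction.

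The SE of Thbs1 dropped from 0.41 to 0.21 with the block and that of Tgfbi from 0.21 to 0.13, while that of Fn1 hardly moved, from 0.12 to 0.11. Thbs1 was lowest in number 3 in both groups.

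**Figure D2:**
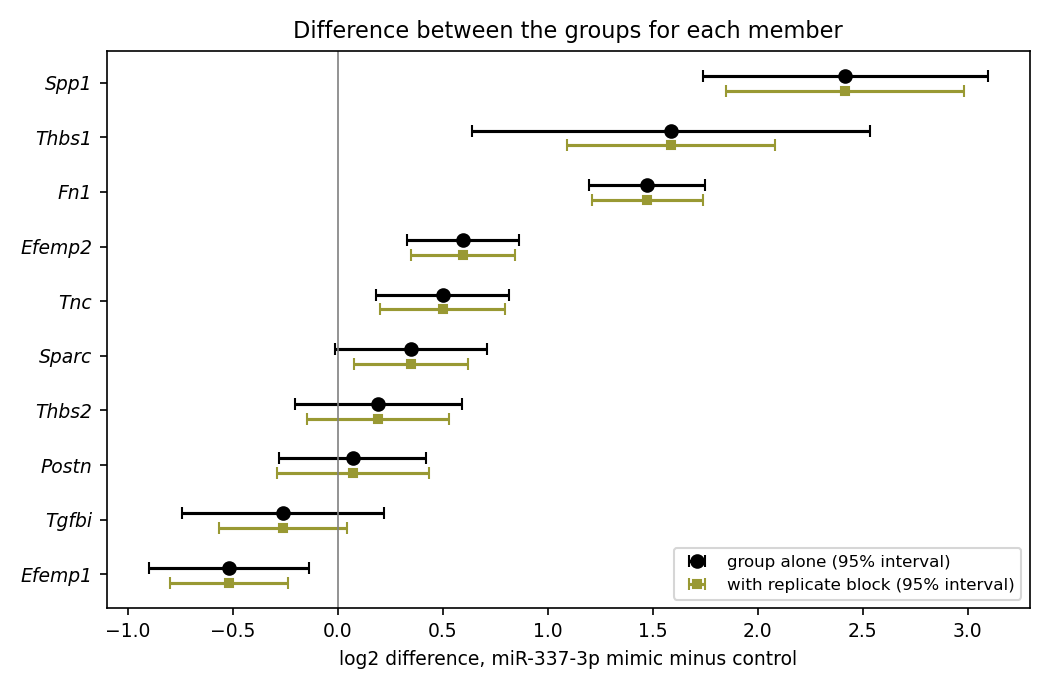
The log2 difference (x axis, miR-337-3p mimic minus control) of each gene is drawn with its 95% interval from limma, with the group alone (black) and with the replicate number as a block (olive). The interval of Thbs1 narrows from 0.64 to 2.53 down to 1.09 to 2.08, and those of Thbs2, Postn and Tgfbi cross 0 in both fits.

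**Figure D3:**
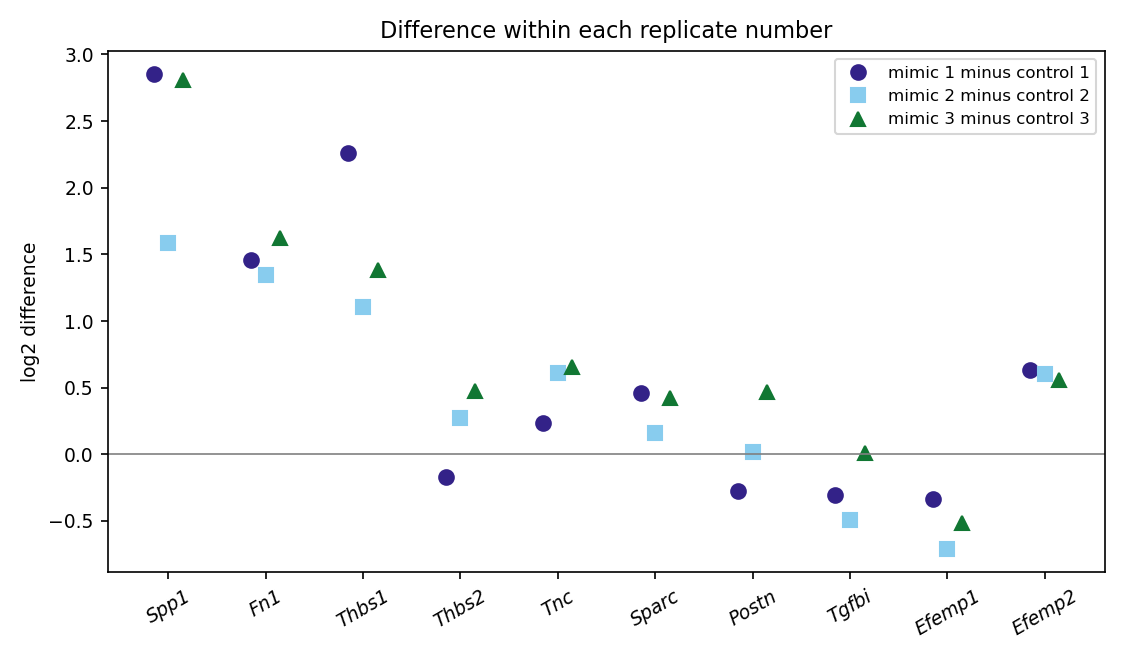
The log2 difference (y axis) between the mimic and control arrays of the same replicate number is plotted for each gene. Spp1, Fn1, Thbs1, Tnc, Sparc and Efemp2 are above 0 for all 3 numbers, Efemp1 is below 0 for all 3, and Thbs2, Postn and Tgfbi fall on both sides.

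The authors' deposited table uses group averages that weigh outlying arrays less, and gave a ratio of 6.85 for Spp1, 3.67 for Thbs1, 2.77 for Fn1 and 1.55 for Efemp2. The averages behind Spp1 in the authors' deposited table were 7.19 and 9.97, so control replicate 2 counted little there. By the authors' deposited table, 0 of the 10 genes reached an FDR p under 0.05, the lowest being 0.0623 for Fn1. The authors' deposited table has 34472 rows, of which 5 did so.

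Promoter sequence was set beside these differences, since Spp1 and Efemp2 lay higher and Efemp1 lower. RefSeq promoters were at hand for 8 of the 10 genes, with 13 start sites in all. Fn1 and Thbs1 had none, so the motif counts below leave them out. The 250 bases before a start are printed 5′ to 3′ on the gene's strand (build GRCm38.p6, all on the plus strand), with matches to the 3 motifs named next, on either strand, in capitals. The element near many start sites that recruits the general machinery was searched as TATAAA. The GC box, bound by SP family factors, was searched as GGGCGG. The AP-1 site, bound by Fos and Jun factors, was searched as TGANTCA. The windows are chr5:104434861-104435110 for the upstream start of Spp1, chr19:5473696-5473945 for that of Efemp2 and chr11:28852955-28853204 for Efemp1.
Spp1: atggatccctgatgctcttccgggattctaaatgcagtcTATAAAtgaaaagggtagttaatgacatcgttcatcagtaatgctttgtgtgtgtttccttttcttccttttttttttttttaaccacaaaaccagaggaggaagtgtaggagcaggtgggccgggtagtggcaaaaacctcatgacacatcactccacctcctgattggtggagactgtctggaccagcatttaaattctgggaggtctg
Efemp2: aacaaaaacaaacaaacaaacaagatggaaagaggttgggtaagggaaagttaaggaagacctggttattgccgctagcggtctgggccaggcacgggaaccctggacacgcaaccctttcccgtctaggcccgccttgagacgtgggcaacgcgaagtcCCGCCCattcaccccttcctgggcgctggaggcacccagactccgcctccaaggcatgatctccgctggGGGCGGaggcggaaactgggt
Efemp1: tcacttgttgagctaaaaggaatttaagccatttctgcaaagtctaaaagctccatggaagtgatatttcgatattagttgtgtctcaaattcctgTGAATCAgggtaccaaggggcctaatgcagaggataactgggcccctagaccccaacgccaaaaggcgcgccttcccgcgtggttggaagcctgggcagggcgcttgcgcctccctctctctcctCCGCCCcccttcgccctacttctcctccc
The Spp1 window was poor in G and C, at 43.6%, and held 1 TATAAA that starts 211 bases before the start site and no GC box. The window of the other Spp1 start, at 35.6% G and C, held neither a TATAAA nor a GC box. The Efemp2 window, at 59.2% G and C, held 2 GC boxes and no TATAAA. The windows of the 2 other Efemp2 starts, which overlap each other, held 5 GC boxes each at 75.6% and 78.8% G and C. The Efemp1 window, at 53.6%, held 1 GC box and the only AP-1 match among the 13 windows. The median over 32536 promoter windows of the same length was 52.4%. Among these windows 12.3% held the TATAAA letters, 33.0% a GC box and 6.73% the AP-1 letters, against 5, 7 and 1 of the 13. The TATAAA windows belong to Postn, Spp1, Thbs2 and Tnc, and the GC box windows to Efemp1, Efemp2, Tgfbi and Tnc. The TATAAA match begins 26 bases before the start in the downstream Postn window and 211 in the upstream Spp1 window. It lies at 126 in Thbs2, on the opposite strand, and at 126 and 205 in the 2 Tnc windows. The shares count a match anywhere in a window, whatever its distance from the start. The 2 Tnc windows overlap and share their TATAAA and GC box, and the overlapping Efemp2 windows share GC boxes. The 13 windows are therefore not 13 separate cases. GGAATG, the core bound by TEAD factors, was found in 12.6% of all windows and in 0 of the 13. CANNTG, the E-box, was found in 66.2% of all windows and in 7 of the 13. The Spp1 and Efemp1 windows printed hold 1 E-box each, 98 and 249 bases before the start, left in lower case. No motif overlapped another of a different kind among the capitals shown, and a match is a description of letters, not of a bound site.

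Receptors for these proteins split, with some integrin genes called higher and others not. Of 21 receptor genes, 4 rose and 0 fell (limma, adjusted over all genes), where 1.89% and 1.68% of all genes did, and 11 lay above 0 and 10 below with a median of 0.12. Itga2, a collagen receptor subunit, rose by 1.20 (SE 0.16, adjusted p = 0.00742), the fibronectin receptor subunit Itga5 by 0.97 (SE 0.18, adjusted p = 0.0278), the osteopontin and hyaluronan receptor Cd44 by 0.89 (SE 0.15, adjusted p = 0.0194) and the laminin receptor subunit Itga3 by 0.89 (SE 0.20, adjusted p = 0.0478). Itga2 was called in all 6 fits with 1 array left out, Cd44 in 3, Itga5 in 2 and Itga3 in none. Without control replicate 1 or mimic replicate 2 or 3 the list held 1 called gene, and without control replicate 3 it held 2. The partner of Itga5 in the fibronectin receptor, Itgb1, is the beta chain of many integrins and differed by 0.24 on the log2 scale (SE 0.12, limma adjusted p = 0.410). Itgav, the alpha chain of several of the integrins that bind osteopontin, lay between 10.96 and 11.21 in control and between 10.94 and 11.29 in mimic samples, and differed by -0.03 on the log2 scale (SE 0.14, limma adjusted p = 0.975). Itgb1 is named here after its value was seen.

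Most other matricellular and related secreted proteins did not pass the test, and 11 of 34 exceeded the background guide on no array. Of the 34, 3 rose and 0 fell, beside 1.89% and 1.68% of all genes. Among the same 34, 22 lay above 0, as did 53.9% of all genes, and 12 below, with a median log2 difference of 0.09. Fibulin 2 (Fbln2), which binds fibronectin and elastin, rose from 6.67, 6.91 and 6.80 to 8.52, 8.37 and 8.16, which is 1.55 on the log2 scale (SE 0.14, adjusted p = 0.00321 in limma). Ctgf, a CCN family protein that binds growth factors and integrins, rose by 1.36 (SE 0.27, adjusted p = 0.0334), and the integrin ligand Spon2 by 1.04 (SE 0.18, adjusted p = 0.0194). Fbln2 was called with any 1 array left out, Ctgf and Spon2 in 2 of the 6 fits each. Without control replicate 1 or 3 or mimic replicate 2 the list held 1 called gene. Cyr61, the CCN relative of Ctgf, read 9.56, 10.72 and 9.26 in control and 10.12, 10.69 and 9.67 in mimic samples and the groups overlapped, with means 0.31 apart on the log2 scale (SE 0.38, limma adjusted p = 0.837). With the replicate block 5 rose and 0 fell, where that fit called 4.7% of all genes higher and 3.88% lower.

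Genes of elastic fibres, microfibrils and crosslinking included 3 that rose and 0 that fell among 24, beside 1.89% and 1.68% of all genes, with a median log2 difference of 0.22. Bmp1, the protease that trims procollagen and other matrix precursors, rose by 1.45 (SE 0.14, adjusted p = 0.00330), and read 7.98, 8.12 and 7.85 in control and 9.62, 9.37 and 9.31 in mimic samples. The latent TGF-beta binding proteins Ltbp4, which works with fibulins in elastic fibre assembly, and Ltbp1, which anchors latent TGF-beta in fibronectin-rich matrix, rose by 1.42 (SE 0.17, adjusted p = 0.00648) and 1.27 (SE 0.12, adjusted p = 0.00330). All 3 were called with any 1 array left out. The elastin gene Eln and the fibrillin genes Fbn1 and Fbn2, named after their values were seen, had log2 differences of 0.10, -0.02 and -0.13 and were dim. Plod2, the lysyl hydroxylase for collagen crosslinks, read 10.33, 11.15 and 10.10 in control and 8.58, 10.46 and 8.86 in mimic samples. Its mean was lower by a log2 value of -1.22 (SE 0.47, limma adjusted p = 0.252). Plod2 was called lower with the replicate block (adjusted p = 0.0109) and without mimic replicate 2. That block fit called 5 higher and 1 lower in this list, beside 4.7% and 3.88% of all genes.

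Among 28 measured proteases and inhibitors, 4 rose and 0 fell, beside 1.89% and 1.68% of all genes. In this list 19 lay above 0, as did 53.9% of all genes, and 9 below, with a median log2 difference of 0.07. The metalloproteinase inhibitors Timp1 and Timp2 rose by 0.88 (SE 0.15, adjusted p = 0.0191) and 0.59 (SE 0.13, adjusted p = 0.0490). The stromelysin Mmp10 rose by 0.99 (SE 0.20, adjusted p = 0.0355), and the collagen chaperone Serpinh1 by 0.60 (SE 0.13, adjusted p = 0.0396). Mmp10 was dim in control samples, at 4.69, 4.86 and 4.65, and exceeded the background guide on only 4 of the 6 arrays. Timp1 was called in 3, Mmp10 in 1 and Timp2 and Serpinh1 in none of the 6 fits with 1 array left out. The list held 0 called genes higher without control replicate 1 or mimic replicate 2, 1 without control replicate 3 or mimic replicate 3, and 2 without control replicate 2 or mimic replicate 1. Adam10, a membrane protease that sheds surface proteins, differed by -0.37 on the log2 scale (SE 0.15, limma adjusted p = 0.271). Under the replicate block 7 rose and 2 fell, beside 4.7% and 3.88% of all genes.

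**Figure D4:**
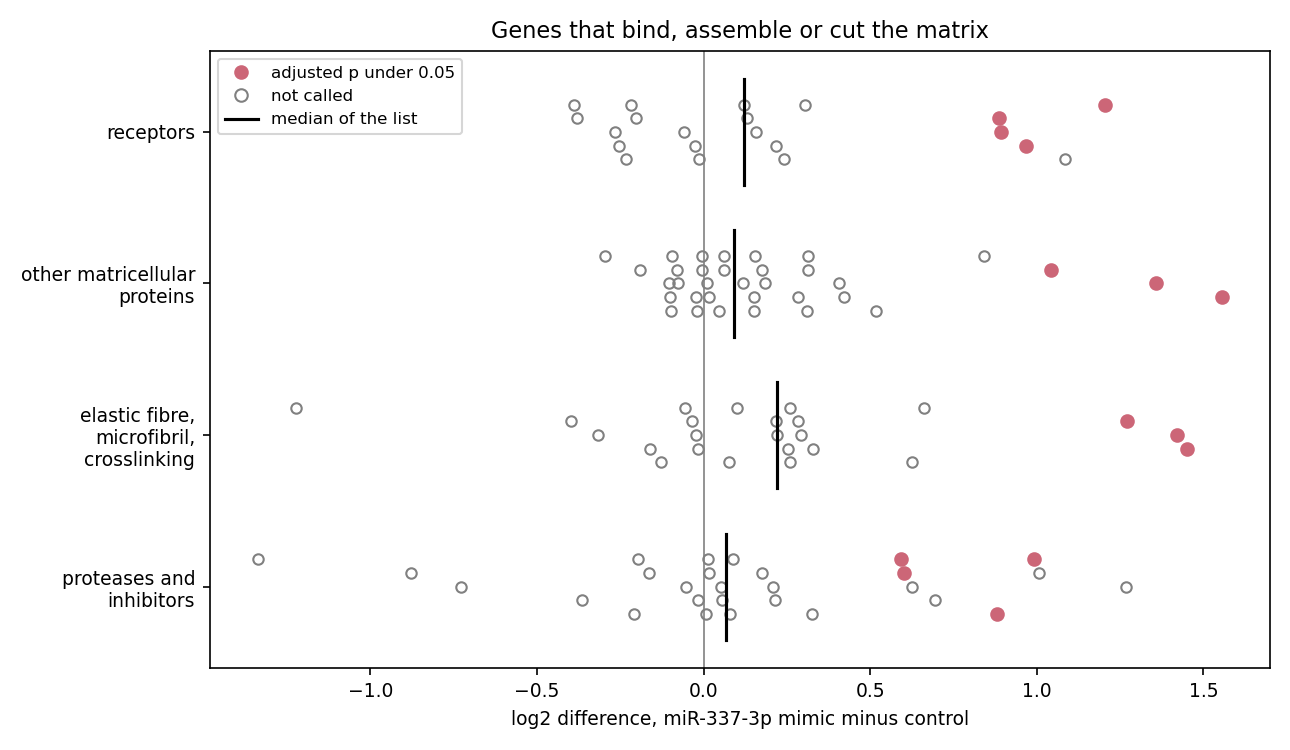
Each circle is 1 gene of 4 lists placed at its log2 difference (x axis, miR-337-3p mimic minus control), filled red where limma's adjusted p was under 0.05, and the black line is the list's median. All 14 called genes lie above 0, and the medians lie between 0.07 and 0.22.

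Genes with profiles most like those of Spp1 and Fn1 were found by the Euclidean distance between log2 profiles over the 6 arrays, each set relative to its control mean. Nearest to Spp1 were Ifi205 (distance 0.64), Ptprn (0.67) and Padi2 (0.78), with log2 differences of 2.63 (SE 0.29), 2.47 (SE 0.24) and 2.22 (SE 0.35). In each of these, as in Spp1, control replicate 2 was the highest control. The distance includes the control values, so this likeness follows in part from how the genes were picked. Nearest to Fn1 were Bmp1 (0.24), the phospholipase gene Plcd1 (0.29) and the transcription factor gene Tead2 (0.29), with log2 differences of 1.45 (SE 0.14), 1.44 (SE 0.16) and 1.36 (SE 0.15). The distances rest on 6 arrays in 2 groups and were not tested.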

How the data were processed

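Per the labels' protocols, total RNA was extracted with Trizol, and biotin-labelled cRNA from 6 ug of it was hybridised to Affymetrix arrays. The authors deposited a log2 signal for each of 41345 transcript clusters on each array, taken here as normalized. Software and background correction, like the normalization method, were not given in the sources used here. Per the file headers, the authors' comparison (34472 rows) holds log2 averages, a signed fold change (a score), a linear ratio, and raw and FDR-adjusted p-values from their analysis of variance. Gene symbols came from it through the transcript cluster ID, and the row with the highest mean was kept per gene.

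limma 3.58.1 in R 4.3.3 (lmFit, eBayes) compared the 3 mimic with the 3 control arrays, two-sided, with Benjamini-Hochberg adjustment over 30927 genes. Errors are limma's SEs. The fit was tested on simulated data. Python 3.11.15 with pandas 2.3.3, numpy 2.4.6 and matplotlib 3.10.9 made the summaries and plots. The genes, lists and tests were chosen with earlier results of these data known. The text names all 10 genes, up to 5 called genes and the brightest uncalled gene of each list, and the 3 nearest profiles to Spp1 and Fn1. Predicted genes, RIKEN clones, receptor families, small RNA genes and pseudogenes were passed over for the last. Motifs and the olfactory receptor guide were chosen after values were seen.

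Groups share replicate numbers 1 to 3. Same-number arrays had deviations from their group means that correlated across genes at 0.431, 0.370 and 0.442, and other pairs at -0.292 to -0.119. No label says what a number marks, so the pairing rests on the values alone. Results come from the fit without the block unless the block is named. Pearson correlations across genes between arrays of a group ran from 0.985 to 0.989. The number of arrays limits the precision.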

Additional observations from a re-analysis of the deposited data

How the results depend on the processing

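Alternatives were the replicate block, eBayes with trend or robust options, leaving out dim genes, median-centred or quantile-normalized arrays, other rows per gene, leaving out 1 array or both arrays of number 1, and the authors' ratio. All 157 recomputed log2 differences of the 10 genes moved by less than the SD between replicates, and no called gene changed sign. For most of them this was fixed in advance. The block, the eBayes options, leaving out dim genes and other rows per gene cannot change the difference of a gene with 1 row. Leaving out 1 of 3 arrays cannot move it by as much as that SD. Only the other normalizations, leaving out both arrays of number 1 and the authors' ratio could have done so. Thbs2, Postn and Tnc were not among the genes tested without dim genes. The 1103 genes called became 2654 with the replicate block, 322 to 721 with 1 array left out and 77 without both arrays of number 1, where fewer arrays are part of the cause. Of the 10 genes, 3 were called higher, 4 with the block, 2 or 3 with 1 array left out and 1 (Fn1) without both arrays of number 1. There were 0 called lower, and 1 (Efemp1) with the replicate block. The 14 calls over the 4 lists became 25 with the replicate block, 5 to 11 with 1 array left out and 1 without both arrays of number 1 (Fbln2). The protease list went from 4 to 2 higher with median-centred arrays. The array medians moved the median difference of all genes by less than 0.1.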

Other observations

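The genes below are given after their values were seen. The integrin chain gene Itgb3, which pairs with Itgav to bind osteopontin, lay higher in each mimic array (6.12 at the lowest) than in any control array (5.78 at the highest). Its log2 difference was 1.08 (SE 0.26, adjusted p = 0.0620), with an adjusted p of 0.00407 with the block. The urokinase gene Plau and its receptor gene Plaur lay on opposite sides, at 0.70 (SE 0.37, adjusted p = 0.461) and -0.73 (SE 0.18, adjusted p = 0.0701). Both were called with the block, at adjusted p of 0.00995 and 0.0180 in limma.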
